A study of Mus musculus with 36 samples.

Results

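The genes described here are 35 genes of protein folding and of the stress responses that accompany it, taken by gene symbol from the 56748 genes of a mouse RNA-seq table. They fall into 5 groups. The ER chaperones and folding enzymes are 14 genes (Hspa5, Hsp90b1, Calr, Canx, Pdia3, Pdia4, Pdia6, Dnajb9, Dnajb11, Dnajc3, Sdf2l1, Creld2, Manf and Hyou1). The ER stress sensors and Xbp1 are 4 (Xbp1, Atf6, Ern1 and Eif2ak3), and the genes of ER-associated degradation are also 4 (Herpud1, Edem1, Sel1l and Derl3). The ATF4-type genes are 7 (Atf4, Ddit3, Asns, Chac1, Sesn2, Psat1 and Phgdh), and the cytosolic heat shock genes are 6 (Hspa1a, Hspa1b, Hspa8, Hsph1, Hsp90aa1 and Dnajb1). Ddit3 was listed under a further identifier that held 0 in every library and was not used.

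Secreted and membrane proteins fold in the endoplasmic reticulum (ER) with the help of chaperones such as BiP, the product of Hspa5. When unfolded proteins accumulate there, the sensors IRE1α (Ern1), PERK (Eif2ak3) and ATF6 start the unfolded protein response, in which spliced XBP1 and cleaved ATF6 raise chaperone and degradation genes. PERK, together with kinases that sense amino acid shortage and other stresses, favours translation of ATF4, a transcription factor for amino acid synthesis genes and for CHOP (Ddit3). Chaperones of the cytosol are driven by a separate factor, HSF1. Adipose tissue in obesity and hepatocytes, which secrete most plasma proteins, are both settings in which these responses are widely studied.

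Visceral (epididymal) white adipose tissue (visWAT) and liver were taken from 18 male mice, giving 36 libraries. Mlkl Adi-KO mice carried floxed Mlkl alleles and an Adipo-Cre transgene active in mature adipocytes, so that other cells of the fat pad and of the liver keep Mlkl, which encodes an effector of necroptosis. WT mice were littermates with the same floxed alleles and no Cre recombinase, on the C57BL/6J background. The mice were 16 weeks old at the start and received a normal chow diet (NCD) or a lipid-rich high-fat diet (HFD) for 16 weeks, with 4 NCD and 5 HFD mice of each genotype. In the order used for the values below, the NCD mice are 165, 180, 182 and 183 (WT) and 166, 179, 197 and 199 (Mlkl Adi-KO). The HFD mice are 154, 155, 161, 162 and 164 (WT) and 151, 152, 153, 156 and 157 (Mlkl Adi-KO).

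Promoter letters are shown because ER chaperones and ATF4-type genes are known targets of motif-binding factors. The window was the 250 bases before the annotated start on GRCm39, the same assembly as mm39, and both strands were searched. The ER stress response element (ERSE, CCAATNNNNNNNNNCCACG), which is bound by ATF6 with NF-Y, stood in 8 of the 22 ER gene windows and in 0.115% of 21770 protein-coding windows. The lines below give the gene-strand letters with the motif in capitals, its free bases in lower case, and 5 bases on each side, and a match on the opposite strand reads CGTGG first and ATTGG second. The coordinates and gene strands are chr2:34662032-34662060 (+) for Hspa5, chr10:86541392-86541420 (-) for the Hsp90b1 site nearer its start, chr8:85573699-85573727 (-) for Calr, chr11:50216622-50216650 (-) for Canx, chr12:17316487-17316515 (+) for Pdia6 and chr15:88703718-88703746 (+) for Creld2.
Hspa5: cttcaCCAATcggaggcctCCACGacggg
Hsp90b1: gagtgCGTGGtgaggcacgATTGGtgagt
Calr: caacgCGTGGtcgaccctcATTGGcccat
Canx: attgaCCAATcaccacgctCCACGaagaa
Pdia6: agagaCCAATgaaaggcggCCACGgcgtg
Creld2: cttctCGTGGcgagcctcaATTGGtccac

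Dnajc3 and Derl3 also held an ERSE, and Hsp90b1 held another one. Sdf2l1 and Manf, the chaperones with the largest diet differences in visWAT and in liver respectively, held none in this window. The unfolded protein response element (TGACGTGG) stood in the Hyou1 window and in 0.56% of all windows. The C/EBP-ATF response element (CARE, TGATGNAA), bound by ATF4 dimers, stood in the windows of Ddit3 and Chac1, in that of Herpud1, and in 3.39% of all windows. Both ATF4-type sites lay on the opposite strand, at chr10:127126356-127126373 for Ddit3 and chr2:119181525-119181542 for Chac1, genes on the + strand. The motif is in capitals, its free base in lower case.
Ddit3: aaacaTTgCATCAtcccc
Chac1: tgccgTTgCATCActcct

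The heat shock element searched for (GAANNTTCNNGAA) stood in 0.349% of all windows and in none of the 6 heat shock gene windows. These matches describe letters only, and binding was not measured.

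Depth ran from 20875463 to 30322171 reads on genes per library. Several libraries stood apart. In visWAT the library labelled WT NCD mouse 183 held a summed 305516 FPKM (fragments scaled to transcript length and library size) of 8 seminal vesicle markers, against 375 in that labelled WT NCD mouse 182, 101 in Mlkl Adi-KO NCD mouse 197 and at most 4.99 in any other. Mlkl, the targeted gene, ran from 1.96 to 2.72 FPKM in Mlkl Adi-KO visWAT and from 3.91 to 6.28 in WT visWAT apart from the library labelled WT NCD mouse 182, which was at 2.29 FPKM with 143 reads and so went against its label. Mlkl in liver ran from 1.62 to 4.19 FPKM over all 18 mice. The visWAT library of Mlkl Adi-KO HFD mouse 156 held Alb at 460 FPKM, against at most 53.2 in any other visWAT library. The 8 hepatocyte markers summed to 1174 FPKM there and 59.2 to 336 in the other Mlkl Adi-KO HFD mice, 23.0 to 152 in WT HFD, and 857 to 1975 over all NCD visWAT libraries, where Cyp2e1, which fat also expresses, held 840 to 1957. The 8 adipocyte markers summed to 4300 to 8419 FPKM in visWAT and 14.1 to 148 in liver, and the 8 hepatocyte markers to 43760 to 68668 FPKM in liver.

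The library labelled WT NCD mouse 183 was the highest of its group for 28 of the 35 genes and for all 14 ER chaperones. Relative to the mean of mice 165 and 180, its FPKM was 21.6 times as high for Derl3, 12.7 times for Chac1, 10.6 times for Sdf2l1, 5.15 times for Manf, 4.48 times for Ern1 and 2.16 times for Hspa5. Sel1l (1.06 times), Ddit3 (1.11 times) and Edem1 (1.16 times) were close to the other mice. Seminal vesicle is a secretory gland, and its share of these ER transcripts was not tested. The library labelled WT NCD mouse 182 differed in other genes, with Hspa8 at 2.06 times, Hsph1 at 1.99 times and Phgdh at 0.36 times the same mean. The main WT visWAT results below are therefore also given without mouse 183 in both tissues, or without both mice.

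**Figure D1:**
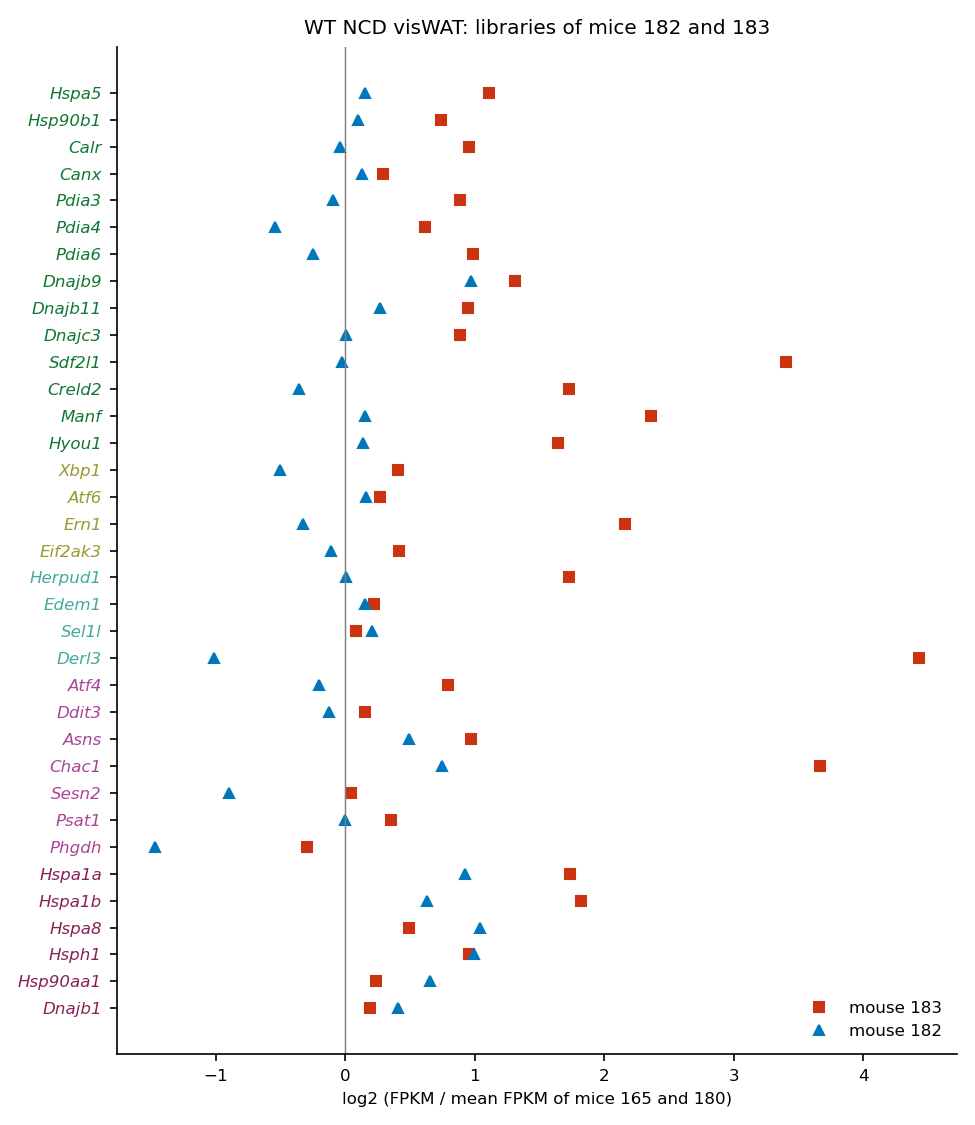
The 35 genes in the visWAT libraries labelled WT NCD mouse 182 (blue triangles) and mouse 183 (red squares), each as the log2 ratio of its FPKM to the mean FPKM of WT NCD mice 165 and 180 (x axis; 0 is that mean), with genes on the y axis coloured by group. The squares lie right of 0 for every gene but Phgdh, farthest for Derl3, Chac1, Sdf2l1 and Manf, whereas the triangles spread to both sides.

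In the NCD state the ER machinery had higher FPKM in liver than in visWAT, and the serine and asparagine synthesis genes were the reverse. The FPKM of all genes summed to 243503, 269807, 309820 and 564718 in WT NCD visWAT and 518087, 542468, 468955 and 529843 in liver. Levels in the tissues are therefore not on a common scale. In WT NCD mice 26 of the 35 genes differed between visWAT and liver, 22 lower and 4 higher in visWAT, or 74.3% of the genes against 65.5% of all genes tested (limma, Benjamini-Hochberg adjusted p under 0.05). Of the ER chaperones 11 of 14 were lower in visWAT, where 34% of all genes were, with a median log2 difference of -1.28, and Herpud1, an ER membrane protein of the degradation complex, was at 20.7, 22.6, 21.7 and 71.7 FPKM in visWAT and 266, 384, 280 and 332 in liver (-3.37 ± 0.38 (SE), adjusted p = 8e-05, and -3.76 ± 0.17 without mouse 183). The tissues did not overlap for this gene.

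Phgdh, which opens serine synthesis, was at 170, 124, 52.9 and 119 FPKM in WT NCD visWAT and at 0.0972, 0, 0.446 and 0.0681 in liver (log2 difference 6.57 ± 0.32, adjusted p = 4.8e-07). Psat1, the next enzyme of that route, differed by 4.52 ± 0.15 and Asns, asparagine synthetase, by 3.98 ± 0.24 on the same scale of log2(FPKM + 1). All 3 were near the detection floor in liver, and Phgdh and Psat1 fell under the filter of a mean of 0.5 FPKM in the liver comparisons. Sesn2 was the other gene higher in visWAT (0.88 ± 0.21, adjusted p = 0.0063). With values rescaled so that each library sums alike (TPM), 17 of the 35 differed, 12 lower and 5 higher, and without mice 182 and 183 it was 28, 24 lower and 4 higher, with all 14 ER chaperones among the lower. The shares of all genes in these other fits are not given here. RNA was extracted with a different reagent in each tissue, so tissue and extraction cannot be told apart in these levels.

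Most ER chaperones rose on HFD in Mlkl Adi-KO visWAT, and most fell on HFD in WT liver. In Mlkl Adi-KO visWAT 21 of the 35 genes differed by diet, 18 higher and 3 lower, or 60% against 43.7% of all genes tested. Among them were 10 of the 14 ER chaperones, all higher on HFD with no overlap between the diets, where 23.3% of all genes were called higher and 20.1% were higher without overlap. The median log2 fold change of the 14 was 0.52, beside 0.01 over all genes.

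Sdf2l1, a BiP cochaperone, had the largest fold change of the list in Mlkl Adi-KO visWAT. It was at 7.16, 7.49, 7.61 and 7.04 FPKM in NCD mice and 28.3, 37.5, 29.8, 17.3 and 17.4 in HFD mice, 3.56 times the NCD mean. The NCD mice lay close together, and HFD mice 156 and 157 were the lowest of a group that lay wholly above them (log2 fold change 1.64 ± 0.22, adjusted p = 0.00066).

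Hspa5 itself was at 60.8, 66.2, 58.3 and 61.6 FPKM on NCD and 80, 125, 93.5, 70.4 and 85.5 on HFD. Mouse 152 was the highest and mouse 156 the lowest of the HFD mice, and every one was above the NCD mice (0.52 ± 0.15, adjusted p = 0.018). Calr, which encodes the lectin chaperone calreticulin, rose from 95.2 ± 3.5 (SD, n = 4) to 157 ± 31 FPKM (SD, n = 5), a log2 fold change of 0.70 ± 0.13 (adjusted p = 0.0035). Manf, a secreted ER protein, rose by 0.62 ± 0.09 (adjusted p = 0.0012), from 8.43 ± 0.41 to 13.6 ± 2.0 FPKM.

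Pdia3 (0.56 ± 0.11), Creld2 (0.53 ± 0.16), Dnajb9 and Dnajb11 (each 0.52), Pdia6 (0.45 ± 0.07) and Hsp90b1 (0.36 ± 0.10) completed the 10. Canx, Pdia4, Dnajc3 and Hyou1 did not pass the test, with log2 fold changes from -0.02 to 0.22. The calls of 7 of the 10 held whichever of the 9 mice was left out. That of Hspa5 was lost without NCD mouse 197, that of Hsp90b1 without NCD mouse 166, and that of Creld2 in 5 of the 9. The HFD mice were ordered, since mouse 152 was the highest for all 14 chaperones and mouse 156 the lowest for 10 of them.

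In WT visWAT the diet difference depended on the library labelled mouse 183. With all mice 6 of the 35 genes differed by diet, 5 higher and 1 lower, or 17.1% against 37.8% of all genes. Without mouse 183 there were 16 (15 higher and 1 lower), and without mice 182 and 183 there were 23 (19 higher and 4 lower). Of the 14 ER chaperones the calls numbered 2, 11 and 12 in these fits, all of them higher on HFD, where 21.9% of all genes were higher with all mice. The shares of all genes without these mice are not given here, so the counts of the reduced fits stand without one.

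Hspa5 was at 61.7, 60.6, 67.9 and 132 FPKM in WT NCD visWAT and at 106, 113, 97.9, 96.9 and 91.1 on HFD. The HFD mice lay above 3 of the NCD mice and below mouse 183. The log2 fold change was 0.40 ± 0.22 (adjusted p = 0.18) over all mice and 0.66 ± 0.10 without mouse 183 (adjusted p = 0.00069). Sdf2l1 behaved alike, at 6.65, 5.13, 5.80 and 62.3 FPKM on NCD and 26.4, 42.9, 28.7, 27.3 and 23.4 on HFD, which gave 1.34 ± 0.63 (adjusted p = 0.13) with mouse 183 and 2.14 ± 0.18 without (adjusted p = 3.5e-05). Only Calr (0.65 ± 0.21, adjusted p = 0.033) and Pdia3 (0.59 ± 0.20, adjusted p = 0.041) passed with all mice, and each lost its call in 8 of the 9 fits that left out 1 mouse. The 1 in which both passed was that without mouse 183, at 0.89 ± 0.10 for Calr (adjusted p = 0.00018) and 0.82 ± 0.11 for Pdia3 (adjusted p = 0.00037). Manf was at 0.12 ± 0.43 with mouse 183 (adjusted p = 0.85) and rose by 0.66 ± 0.12 without it (adjusted p = 0.0020).

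In liver the chaperones that passed were all lower on HFD. In WT liver 19 of the 33 genes tested differed by diet, 2 higher and 17 lower, or 57.6% against 25.3% of all genes, and lower calls alone were 51.5% against 12.1%. Of the ER chaperones 9 of 14 were lower on HFD and none higher, with a median log2 fold change of -0.51. Manf was at 23.4, 36.3, 22.8 and 33.1 FPKM on NCD and 14.2, 12.5, 9.52, 11.4 and 11.4 on HFD. The groups did not overlap, and the HFD mean was 0.409 times that of NCD (-1.20 ± 0.16, adjusted p = 0.00069).

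Hspa5 was at 188, 252, 190 and 261 FPKM in WT liver on NCD and 150, 132, 120, 133 and 113 on HFD, again without overlap (-0.77 ± 0.12, adjusted p = 0.0023). Hyou1, a large ATP-dependent ER chaperone, fell by 0.99 on the log2 scale, Sdf2l1 by 0.98, Creld2 by 0.84, Dnajb9 by 0.70, Pdia4 by 0.59, Hsp90b1 by 0.42 and Canx by 0.25. Calr, Pdia3, Pdia6, Dnajb11 and Dnajc3 did not pass, at -0.31, -0.24, -0.28, -0.35 and 0.17. All these calls but that of Canx held whichever mouse was left out. In liver mouse 182 was the lowest of the WT NCD mice for 12 of the 14 chaperones, and without it the number of genes called was 20.

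In Mlkl Adi-KO liver 10 of the 33 genes tested differed by diet, 1 higher and 9 lower, or 30.3% against 22.2% of all genes. The chaperones lower on HFD were 6 of 14, beside 10.3% of all genes, namely Manf (-1.03 ± 0.19, adjusted p = 0.0043), Hyou1 (-0.75 ± 0.19), Dnajb9 (-0.72 ± 0.12), Sdf2l1 (-0.60 ± 0.14), Hspa5 (-0.57 ± 0.13, adjusted p = 0.012) and Pdia4 (-0.40 ± 0.11). Hspa5 was at 201, 219, 189 and 190 FPKM on NCD and 167, 112, 147, 108 and 145 on HFD, which did not overlap. The call of Hyou1 was lost without NCD mouse 166 or 197, and that of Pdia4 in 5 of the 9 fits.

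**Figure D2:**
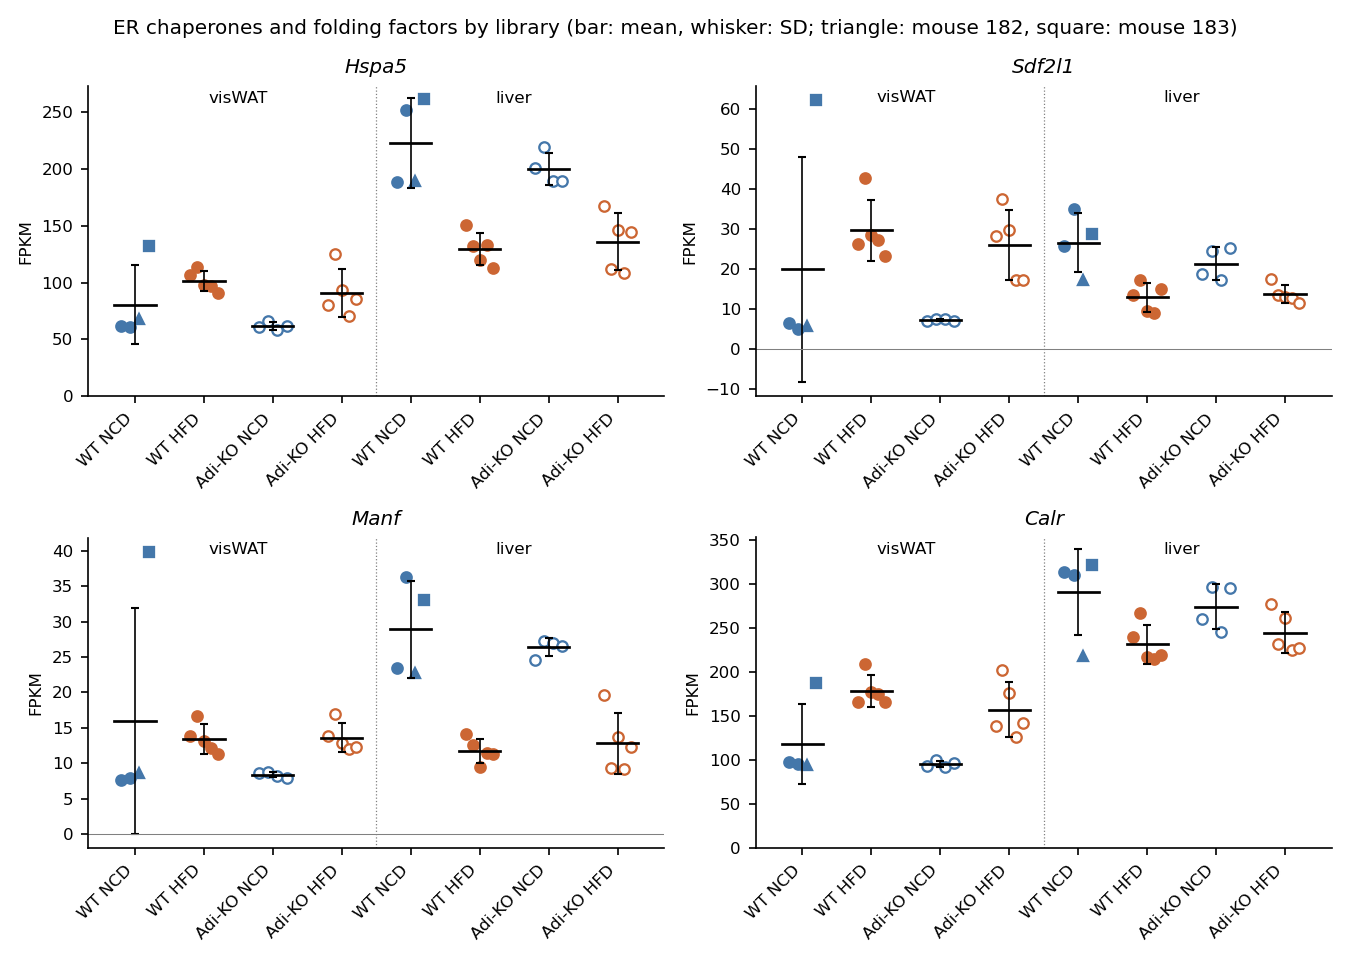
FPKM (y axis) of ER chaperone genes in each library of the 8 groups (x axis), visWAT left of the dotted line and liver right of it, with NCD in blue, HFD in orange, WT filled and Mlkl Adi-KO open. Bars are means and whiskers the SD, which reaches below 0 where the square of mouse 183 stands far above its group, and triangles mark mouse 182. In visWAT the HFD points lie above the NCD points apart from mouse 183, and in liver the Hspa5 and Manf HFD points lie below the NCD points.

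Whether the diet difference depended on the tissue was tested in WT mice as an interaction of tissue and diet on log2(FPKM + 1), where a positive value means a diet difference that is more positive in visWAT. It passed for 18 of the 35 genes, 15 positive and 3 negative, or 51.4% against 40% of all genes. Of the ER chaperones 9 of 14 were positive, beside 21.8% of all genes, and none negative, with Sdf2l1 at 2.32 ± 0.71 (adjusted p = 0.016), Manf at 1.32 ± 0.48 (adjusted p = 0.038), Hspa5 at 1.17 ± 0.26 (adjusted p = 0.0022) and Calr at 0.97 ± 0.25 (adjusted p = 0.0057). Without mouse 183 these values were 3.07 ± 0.34, 1.79 ± 0.21, 1.35 ± 0.16 and 1.15 ± 0.17. By their numbers, both tissues came from the same mice. With the mouse as a block 22 of the genes passed, Creld2, Hyou1, Hspa1a and Hspa1b in addition (adjusted p = 0.037, 0.027, 0.027 and 0.048). Manf lost its call in 8 of the 9 fits without 1 mouse and Sdf2l1 in 2, and 11 of the 18 calls held in every such fit. Without mice 182 and 183 the total was 27 (23 positive and 4 negative). On the TPM scale 27 passed, 26 positive and 1 negative, but the median of all genes was also shifted to the positive side there. Those TPM counts therefore do not single out these genes. The shares of all genes in these other fits are not given here.

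Cell type markers moved with the diet in the same libraries. The 8 macrophage markers summed to 179 to 274 FPKM in WT NCD visWAT and 1565 to 2201 on HFD, and to 238 to 411 and 614 to 2018 in Mlkl Adi-KO visWAT, where mice 152 and 153 held 1905 and 2018 and mice 156 and 157 held 656 and 614. The 8 adipocyte markers summed to 4300 to 6747 and 4543 to 5486 FPKM on NCD and HFD in WT visWAT. In liver the 8 hepatocyte markers summed to 58110 to 65939 FPKM on NCD and 43760 to 50725 on HFD in WT mice, while adipocyte markers went from 18.6 to 35.6 up to 104 to 148. In Mlkl Adi-KO liver the adipocyte markers summed to 14.1 to 46.1 FPKM on NCD and 20.8 to 126 on HFD. Which liver cells held these transcripts was not measured. The part of these shifts in the chaperone results was not tested. In bulk tissue, fewer cells of a type and less RNA per cell cannot be told apart. The plasma cell markers, from cells rich in ER, summed to 36.8 to 237 FPKM on NCD and 104 to 349 on HFD in WT visWAT, and mouse 152 held 408 FPKM, the highest of the visWAT libraries. Mouse 155, the highest WT HFD visWAT library for 11 of the 14 chaperones, held 105 FPKM, and mouse 183 held 36.8. Pancreas markers were at most 0.166 FPKM in any visWAT library. In liver they summed to 51.8 FPKM in WT HFD mouse 155 and 30.2 in Mlkl Adi-KO NCD mouse 166, with 6 of the 8 markers at 0 in each. The other livers held at most 0.448 FPKM, and the part of this in the liver results was not tested.

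**Figure D3:**
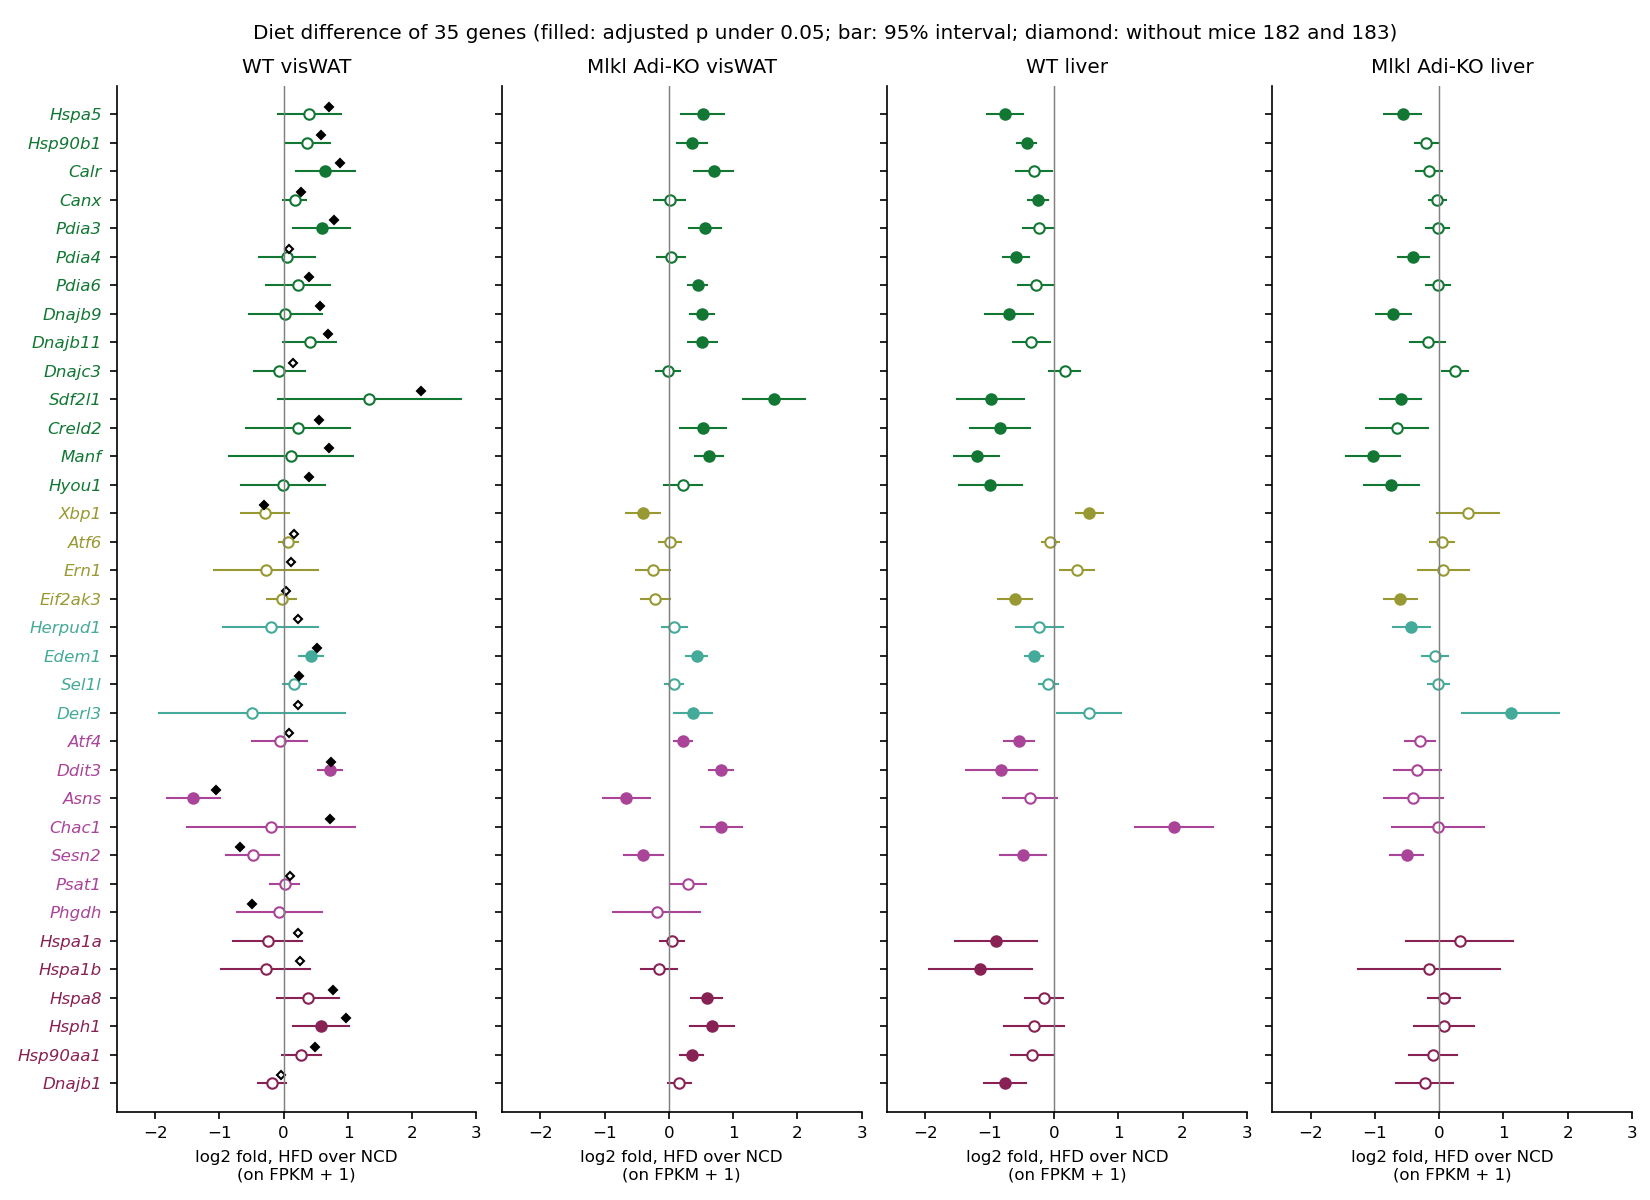
Log2 fold change of HFD over NCD on FPKM + 1 (x axis) for the 35 genes (y axis, coloured by group) in WT and Mlkl Adi-KO visWAT and liver, with 95% intervals, filled circles for an adjusted p under 0.05 and, in WT visWAT, diamonds for the values without mice 182 and 183. Of the 14 ER chaperones 13 lie right of 0 in Mlkl Adi-KO visWAT (10 filled) and 13 left of 0 in WT liver (9 filled), and Dnajc3 is the exception in both.

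Xbp1 was higher on HFD in WT liver and lower in Mlkl Adi-KO visWAT, and of the 3 sensors only Eif2ak3 passed a diet comparison, in liver. Xbp1, whose spliced mRNA encodes the transcription factor (splicing is not resolved by these gene totals), was at 55.8, 68.6, 50.4 and 62.7 FPKM in WT NCD liver and 97.9, 85.1, 86.1, 79.4 and 87.1 on HFD. The groups did not overlap (0.55 ± 0.09, adjusted p = 0.0029). In Mlkl Adi-KO liver it ran from 67.8 to 78.2 FPKM on NCD and from 73.4 to 169 on HFD (0.45 ± 0.22, adjusted p = 0.17). In Mlkl Adi-KO visWAT Xbp1 was lower on HFD, at 46.3 ± 6.3 FPKM (SD, n = 5) against 61.1 ± 7.0 (SD, n = 4), a change of -0.40 ± 0.12 (adjusted p = 0.023) that was lost without NCD mouse 166, 197 or 199. In WT visWAT it was at -0.29 ± 0.17 (adjusted p = 0.20) and, without mouse 182, at -0.45 ± 0.13 (adjusted p = 0.023). The interaction of tissue and diet in WT mice was -0.84 ± 0.20 (adjusted p = 0.0029), and on the TPM scale it did not pass (adjusted p = 0.21).

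Eif2ak3, the gene for PERK, fell in liver by 0.61 on the log2 scale in WT mice (adjusted p = 0.0057) and by 0.60 in Mlkl Adi-KO mice (adjusted p = 0.0059). It was at 4, 5.26, 6.86 and 5.18 FPKM in WT NCD liver and 3.28, 3.06, 2.70, 3.52 and 2.94 on HFD, with no overlap. In visWAT neither genotype passed (-0.03 in WT and -0.21 in Mlkl Adi-KO mice). Atf6 (between -0.06 and 0.07) and Ern1 (between -0.28 and 0.36) passed in no diet comparison. In WT visWAT the signs of Eif2ak3 and Ern1 turned without mouse 183, to 0.06 ± 0.08 and, from -0.28, to 0.19 ± 0.07 (adjusted p = 0.60 and 0.072).

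Of the degradation genes, Edem1, a lectin that directs misfolded glycoproteins to disposal, had the steadiest visWAT response. It was at 15.5, 13.1, 15.9 and 16.6 FPKM in WT NCD visWAT and 21.5, 18.8, 20.6, 21.4 and 22.0 on HFD, and mouse 183 was not apart from its group. The diets did not overlap, and the log2 fold change was 0.43 ± 0.08 in WT (adjusted p = 0.0033) and 0.43 ± 0.08 in Mlkl Adi-KO mice (adjusted p = 0.0022). Without mouse 183 the WT value was 0.47 ± 0.08. In WT liver Edem1 fell by 0.31 (adjusted p = 0.0052), and the interaction of tissue and diet was 0.74 ± 0.10 (adjusted p = 2.5e-05). Herpud1 fell by 0.43 in Mlkl Adi-KO liver (adjusted p = 0.038), a call lost in 6 of the 9 fits without 1 mouse. Sel1l passed in no diet comparison. Derl3, a member of the retrotranslocation complex, was below 6 FPKM in every library but mouse 183 visWAT. Derl3 rose by 1.11 ± 0.34 in Mlkl Adi-KO liver (adjusted p = 0.041) and by 0.38 ± 0.13 in Mlkl Adi-KO visWAT (adjusted p = 0.046), and each call was lost in at least 6 of 9 fits without 1 mouse.

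Of the ATF4-type genes Ddit3 was higher and Asns lower on HFD in visWAT, and Chac1 was higher in WT liver. Ddit3, the gene for CHOP, was higher on HFD in visWAT of both genotypes, at 8.35, 7.94, 7.46 and 9.05 FPKM in WT NCD mice and 12.8, 16.2, 13.4, 14.1 and 14.7 on HFD. Mlkl Adi-KO mice were at 8.71, 9.40, 7.98 and 8.28 FPKM on NCD and 17.2, 15.2, 14.2, 14.8 and 18.2 on HFD. The diets did not overlap in either genotype, mice 182 and 183 were not apart from the other NCD mice, and the log2 fold changes were 0.73 ± 0.08 (adjusted p = 0.00012) and 0.81 ± 0.08 (adjusted p = 0.00028). Without mouse 183 the WT value was 0.77 ± 0.08.

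In WT liver Ddit3 was at 5.68, 7.76, 15.9 and 6.19 FPKM on NCD and 4.70, 4.61, 3.61, 4.61 and 3.60 on HFD. The groups did not overlap, but mouse 182 was far above the others, and the call (-0.82 ± 0.24, adjusted p = 0.036) was lost in 6 of the 9 fits that left out 1 mouse. The same library held 124 FPKM of the macrophage markers, and the other WT livers at most 63.5. The interaction of tissue and diet for Ddit3 was 1.55 ± 0.27 (adjusted p = 0.00027).

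Asns went against Ddit3 in visWAT. It was at 19.3, 21.3, 28.5 and 39.7 FPKM in WT NCD mice and 9.58, 9.04, 8.63, 10.2 and 8.91 on HFD, and at 21.2, 20.1, 18.4 and 21.5 in Mlkl Adi-KO NCD mice and 11.7, 10, 9.43, 16.0 and 16.7 on HFD. The diets did not overlap in either genotype (-1.41 ± 0.18, adjusted p = 0.0003, and -0.66 ± 0.16, adjusted p = 0.011). Without mouse 183 the WT fold change was -1.21 ± 0.12 (adjusted p = 9e-05). The interaction of tissue and diet (-1.03 ± 0.27) was lost with a pseudocount of 0.1 FPKM, on the TPM scale and in both count tests. Asns in liver was at most 1.3 FPKM.

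Chac1, which degrades glutathione and is a target of ATF4 and CHOP, differed in liver. It was at 2.14, 1.27, 1.80 and 1.96 FPKM in WT NCD liver and at 8.26, 8.67, 11.1, 16.0 and 4.71 on HFD, a mean 5.44 times as high (log2 fold change 1.86 ± 0.27, adjusted p = 0.0012). Every HFD mouse was above every NCD mouse. In Mlkl Adi-KO liver it was at 5.26, 3.12, 2.86 and 3.30 FPKM on NCD and 5.68, 2.39, 3.94, 6.03 and 1.31 on HFD, and these overlapped (-0.02 ± 0.32, adjusted p = 0.97).

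The rise of Chac1 in WT liver held in all 9 fits that left out 1 mouse and in both count tests. It stood beside lower Atf4 mRNA (-0.54 ± 0.10, adjusted p = 0.0052) and lower Sesn2 (-0.49 ± 0.16, adjusted p = 0.0496, lost in 8 of 9 such fits). ATF4 is controlled mainly by translation, so its mRNA does not measure the protein. In Mlkl Adi-KO visWAT Chac1 rose by 0.82 ± 0.14 (adjusted p = 0.0022), without overlap, and Atf4 by 0.22 ± 0.06 (adjusted p = 0.019). In WT visWAT Chac1 was at 2.11, 1.77, 3.25 and 24.6 FPKM on NCD and 3.06 to 5.39 on HFD, so that its sign turned with mouse 183, from -0.20 ± 0.58 (adjusted p = 0.81) to 0.54 ± 0.17 without it (adjusted p = 0.034).

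Phgdh varied widely within groups in visWAT. The Mlkl Adi-KO HFD mice were at 155, 96.6, 84.7, 210 and 233 FPKM, with mice 151, 156 and 157 above mice 152 and 153, and these 3 mice also held the highest adipocyte marker sums of the group (7776 to 8419 FPKM) and macrophage sums of at most 1252 FPKM. No diet or genotype comparison of Phgdh passed, and Psat1 passed in none. Sesn2, a stress-induced regulator of mTORC1, was lower on HFD in both tissues of Mlkl Adi-KO mice (-0.40 ± 0.13, adjusted p = 0.037, in visWAT and -0.51 ± 0.11, adjusted p = 0.011, in liver), the visWAT call being lost in 5 of the 9 fits without 1 mouse. In WT visWAT Sesn2 was at -0.49 ± 0.18 (adjusted p = 0.061), and it was called lower without mouse 182 (-0.69 ± 0.10, adjusted p = 0.00088) and by edgeR (-0.64, adjusted p = 0.023) and DESeq2 (-0.62, adjusted p = 0.0069).

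**Figure D4:**
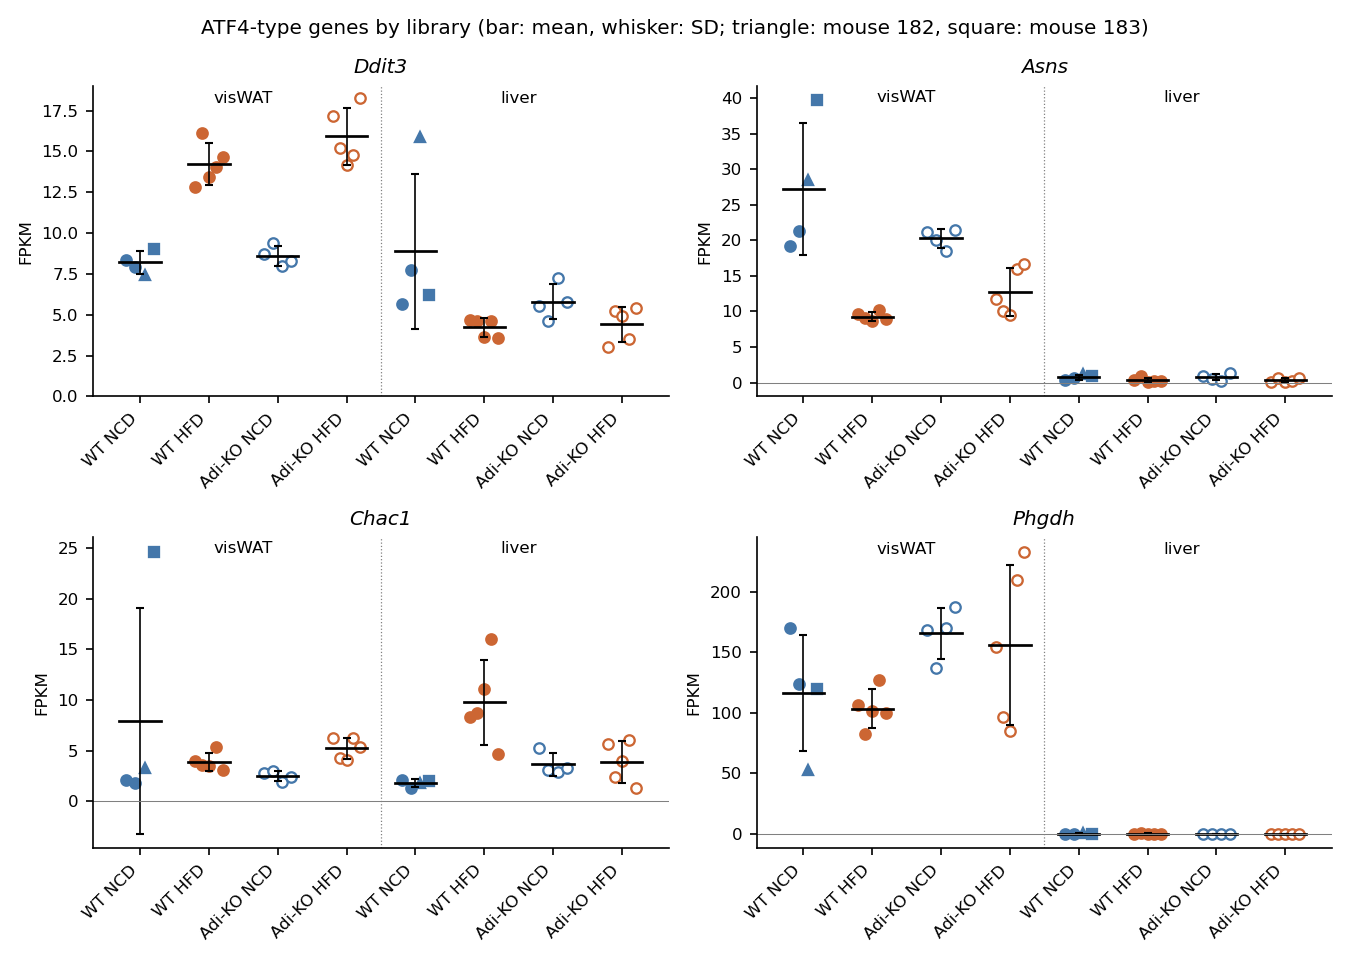
FPKM (y axis) of Ddit3, Asns, Chac1 and Phgdh in each library of the 8 groups (x axis), with NCD in blue, HFD in orange, WT filled and Mlkl Adi-KO open; bars are means, whiskers the SD, triangles mouse 182 and squares mouse 183. Ddit3 is higher and Asns lower on HFD in visWAT of both genotypes, Chac1 is higher on HFD in WT liver, and Phgdh lies near 0 in liver.

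In Mlkl Adi-KO visWAT 3 of the 6 cytosolic heat shock genes rose on HFD, all without overlap and in every fit without 1 mouse. Over all genes 23.3% were called higher there and 20.1% were higher without overlap. Hsph1, a nucleotide exchange factor of HSP70, was at 3.09, 3.96, 2.31 and 2.41 FPKM on NCD and 4.73, 6.75, 5.31, 3.98 and 5.57 on HFD (0.67 ± 0.15, adjusted p = 0.0068). Hspa8, the constitutive HSP70 of the cytosol, rose by 0.59 ± 0.11 (adjusted p = 0.0025), from 136 ± 12 FPKM (SD, n = 4) to 206 ± 24 (SD, n = 5), and Hsp90aa1 by 0.35 ± 0.08 (adjusted p = 0.0072). The stress-inducible Hspa1a and Hspa1b did not pass (0.05 and -0.15), nor did Dnajb1 (0.16). Hspa1a and Hspa1b are near-identical copies, and how their shared reads were divided is uncertain.

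In WT visWAT Hsph1 passed (0.58 ± 0.19, adjusted p = 0.041) and lost its call in 7 of the 9 fits without 1 mouse. Hspa8 was at 140, 125, 273 and 186 FPKM on NCD and 219, 263, 230, 215 and 203 on HFD, so the library labelled mouse 182 was the highest of all 9 (0.38 ± 0.21, adjusted p = 0.19). Without mice 182 and 183 Hspa8 rose by 0.76 ± 0.11 (adjusted p = 0.0010), Hsph1 by 0.96 ± 0.12 and Hsp90aa1 by 0.49 ± 0.07.

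In WT liver 3 of the 6 were lower on HFD, beside 12.1% of all genes. Dnajb1, the HSP40 partner of HSP70, was at 13.1, 15.9, 21.7 and 20.5 FPKM on NCD and 12.1, 9.95, 9.28, 9.08 and 9 on HFD, with no overlap (-0.77 ± 0.14, adjusted p = 0.0048, in every fit without 1 mouse). Hspa1b was at 13.0, 26.6, 37.7 and 38.6 FPKM on NCD and 23.3, 9.48, 9.68, 10.4 and 8.93 on HFD, which overlapped (-1.15 ± 0.36, adjusted p = 0.042). The call of Hspa1b was lost in 7 of the 9 fits without 1 mouse, and so was that of Hspa1a (-0.91 ± 0.28, adjusted p = 0.044) in 6.

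Single livers carried the whole heat shock group. WT HFD mouse 154 was the highest of its group for all 6 genes, Mlkl Adi-KO HFD mouse 157 likewise, and WT NCD mouse 165 was the lowest of its group for all 6. In mouse 157 Hspa1b stood at 42.6 FPKM against 5.80 to 17.1 in the other Mlkl Adi-KO HFD livers, and Hsph1 at 19.2 against 8.30 to 9.13. None of the 6 genes passed the diet comparison in Mlkl Adi-KO liver, with or without mouse 157, where Dnajb1 came to -0.40 ± 0.13 (adjusted p = 0.059). The 8 immediate-early genes, which respond within minutes to handling and other stimuli, summed to 77.2 to 137 FPKM in WT NCD liver and 44.8 to 63.7 on HFD, and to 83.9 to 110 and 51.0 to 181 in Mlkl Adi-KO liver. Of the 11 clock genes tested, 6 were higher and 3 lower on HFD in liver of each genotype. The part of either in the liver results was not tested.

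**Figure D5:**
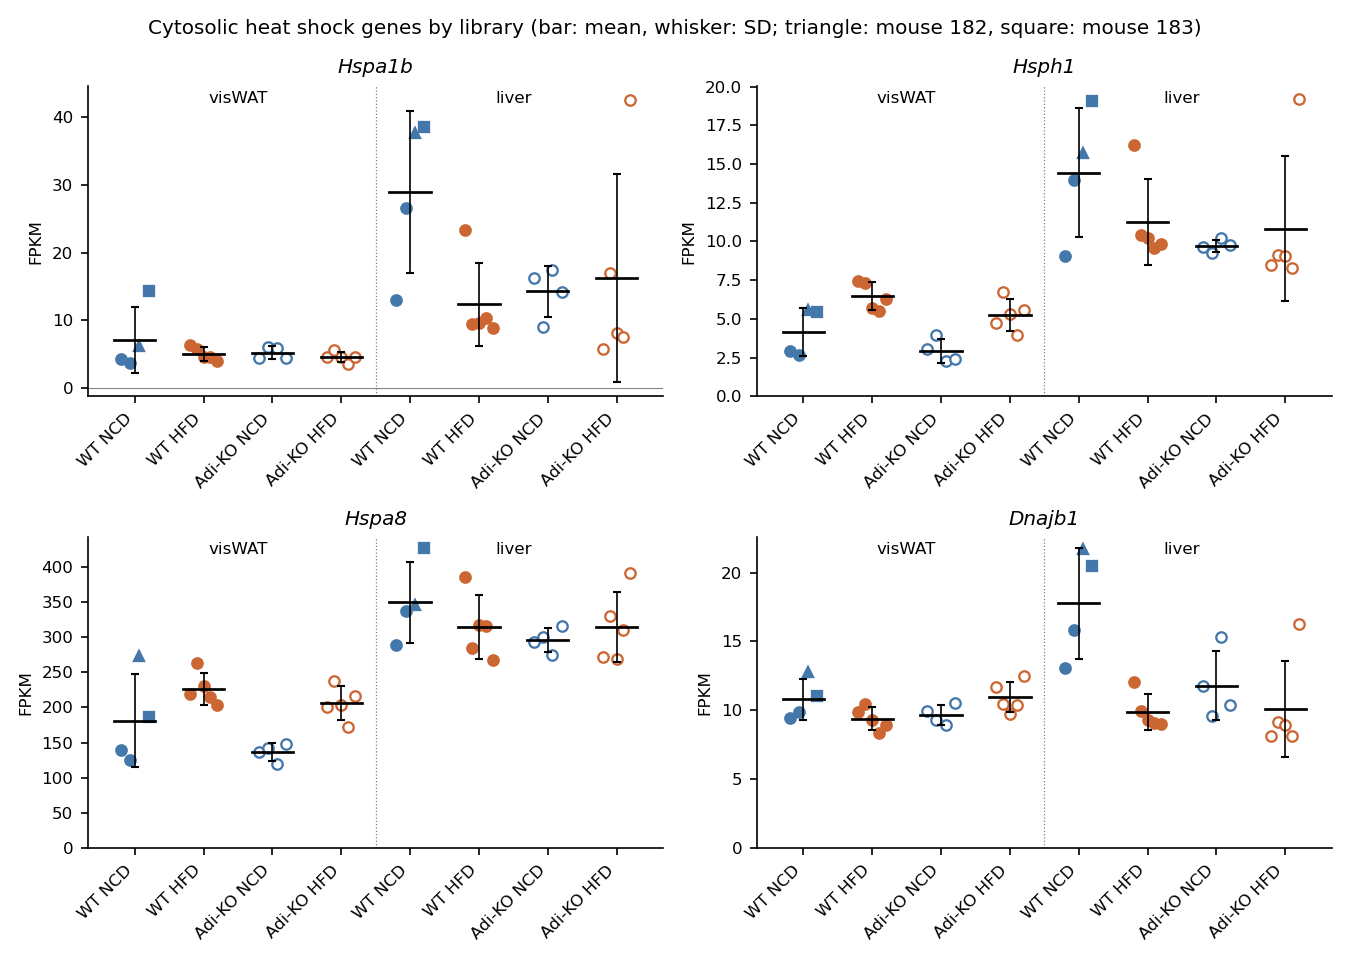
FPKM (y axis) of Hspa1b, Hsph1, Hspa8 and Dnajb1 in each library of the 8 groups (x axis), with NCD in blue, HFD in orange, WT filled and Mlkl Adi-KO open; bars are means, whiskers the SD, triangles mouse 182 and squares mouse 183. One Mlkl Adi-KO HFD liver (mouse 157) and one WT HFD liver (mouse 154) lie above the rest of their groups, and the WT NCD livers are spread widely.

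Other genes of the same pathways were counted in 3 further lists. In Mlkl Adi-KO visWAT 19 of 38 other ER genes were higher on HFD and 2 lower, 11 of 28 other ATF4-type genes were higher and 2 lower, and 8 of 19 other heat shock genes were higher and 0 lower. Over all genes 23.3% were higher and 20.3% lower. Pdia5 (0.68 ± 0.07) and P4hb (0.60 ± 0.07), both disulphide isomerase family genes, led the ER list together with Dad1, a subunit of oligosaccharyltransferase (0.61 ± 0.09), while Syvn1, the degradation ubiquitin ligase, fell by 0.28. In WT visWAT the same lists gave 1 higher and 2 lower, 4 and 3, and 2 and 3, and without mouse 183 they gave 18 and 2, 11 and 3, and 3 and 4. With all mice 21.9% of all genes were called higher in WT visWAT and 37.8% in either direction. The share without mouse 183 is not given here.

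Atf3, a stress-induced partner of ATF4 signalling, had the largest fold change of these lists in visWAT. Its mean went from 2.91 to 60.4 FPKM in WT mice (4.02 ± 0.25, adjusted p = 3.1e-06) and from 3.68 to 33.0 in Mlkl Adi-KO mice (2.73 ± 0.51, adjusted p = 0.0031). Gdf15, a stress-induced hormone, rose in visWAT of WT mice (2.31 ± 0.19) and fell in their liver (-1.39 ± 0.34, adjusted p = 0.016), from 18.3 to 6.15 FPKM. Gpt2, a mitochondrial alanine aminotransferase, did the reverse, at -1.47 ± 0.17 in WT visWAT and 0.55 ± 0.06 in WT liver, and at -1.49 ± 0.20 and 0.83 ± 0.08 in Mlkl Adi-KO mice.

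In WT liver 15 of the 38 other ER genes were lower on HFD and 0 higher, beside 12.1% and 13.2% of all genes, and Selenos (-0.84 ± 0.08) and Spcs2 (-0.76 ± 0.10) led. Of 26 other ATF4-type genes 9 were lower and 3 higher, with Trib3, a pseudokinase induced by ATF4 and CHOP, at -1.56 ± 0.13 (adjusted p = 6.8e-05) and Atf5, a relative of ATF4, at -1.03 ± 0.08 (adjusted p = 5.8e-05). In Mlkl Adi-KO liver Trib3 was at -1.49 ± 0.29 and Atf5 at -1.08 ± 0.11. The counts there were 6 lower and 1 higher ER genes and 9 lower and 2 higher ATF4-type genes. Of all genes in that comparison 10.3% were called lower and 22.2% in either direction. Chac1 thus rose in WT liver while Trib3, Atf5, Gdf15 and Ddit3 were lower, the call of Ddit3 being lost in 6 of 9 fits without 1 mouse. Gpt2 (0.55 ± 0.06), Shmt2 (0.31 ± 0.08) and Cebpg (0.24 ± 0.07) were also higher on HFD in WT liver. The small heat shock gene Cryab rose in visWAT of both genotypes (0.89 ± 0.19 and 1.14 ± 0.14). Without mouse 183 the WT visWAT values were 4.28 ± 0.18 for Atf3, 2.34 ± 0.21 for Gdf15, -1.47 ± 0.19 for Gpt2 and 0.80 ± 0.20 for Cryab.

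Between the genotypes limma called none of the genes tested in any tissue or diet, and DESeq2 called 1, Hspa1a in NCD liver. In HFD visWAT 0 of 35 differed by limma, where 0.0215% of all genes did, 6 had an unadjusted p under 0.05 (3 higher and 3 lower in Mlkl Adi-KO, beside 21.5% of all genes), and edgeR and DESeq2 also called 0 (6 and 7 by the unadjusted p). In NCD visWAT it was 0 of 35 beside 0% of all genes, with 0, 1 and 1 genes under an unadjusted 0.05 in limma, edgeR and DESeq2 (3.75% of all genes in limma), and neither count test called any. Without mice 182 and 183 limma again called 0, and the median log2 difference of the ER chaperones went from -0.25 to 0.04. In HFD liver it was 0 of 32 in all 3 tests beside 0.197% by limma, with 3, 4 and 4 under an unadjusted 0.05 (12.6% of all genes). In NCD liver limma and edgeR called 0 of 33, beside 0.00758% of all genes by limma, with 7, 8 and 9 genes under an unadjusted 0.05 (4.35% of all genes).

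The intervals show what these groups could resolve. For Hspa5 in HFD visWAT the log2 difference of Mlkl Adi-KO from WT was -0.18 (95% interval -0.48 to 0.13), and in HFD liver 0.05 (-0.22 to 0.33). In HFD visWAT 12 of the 14 ER chaperones were below 0, with a median of -0.14, and all 7 ATF4-type genes above 0, with a median of 0.24, beside -0.00065 over all genes. Asns (0.39, interval 0.06 to 0.72, adjusted p = 0.22) and Chac1 (0.35, interval 0.03 to 0.67, adjusted p = 0.22) were among them. Atf6 was the one gene whose groups did not overlap in HFD visWAT, at 4.30, 4.24, 4.22, 4.57 and 4.32 FPKM in WT and 3.46, 4.13, 4.21, 3.58 and 3.44 in Mlkl Adi-KO mice (-0.16 ± 0.06, adjusted p = 0.22), and 3.01% of all genes were without overlap there.

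In HFD liver Atf4 was at 37.8, 34.3, 36.3, 34.7 and 38.0 FPKM in WT and 57.9, 40.5, 43.3, 47.0 and 39.3 in Mlkl Adi-KO mice, which did not overlap (0.31 ± 0.09, adjusted p = 0.24, beside 2.62% of all genes). Chac1 in NCD liver did not overlap either, being higher in Mlkl Adi-KO mice (0.71 ± 0.17, adjusted p = 0.91), and Hspa1a was lower without overlap (-0.98 ± 0.28, adjusted p = 0.996), beside 2.8% of all genes. DESeq2 on the recovered reads called Hspa1a there (-2.03, adjusted p = 0.0125).

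Whether the diet difference itself depended on genotype was tested as an interaction. In visWAT 0 of the 35 genes passed by limma, edgeR or DESeq2, beside 0% of all genes, with 2, 5 and 3 at an unadjusted p under 0.05 (13.2% of all genes), and for Hspa5 the value was 0.13 (interval -0.46 to 0.71). Without mice 182 and 183 it was -0.19 ± 0.20 (adjusted p = 0.70), a turn of sign, and again 0 genes passed. In liver 0 of 33 passed by limma and edgeR, beside 0.0151% of all genes, with 5 and 6 at an unadjusted p under 0.05 (6.12% of all genes). Chac1 was the farthest from 0 at -1.89 ± 0.44 (interval -2.83 to -0.95, adjusted p = 0.20), and DESeq2 called it, alone of the 33, at -2.36 (adjusted p = 0.00615). The Chac1 interaction was thus called by 1 of the 3 tests.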

How the data were processed

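Per the labels and the study's methods, polyA RNA of 36 libraries was sequenced in paired ends, trimmed with fastp, aligned with HISAT2 to mm39 and counted with featureCounts 1.5.0-p3; annotation release and strand setting are not given in the sources used here. The FPKM values were deposited by the authors and rest on an effective library size that was 1.01 to 1.40 times (visWAT) or 0.737 to 0.812 times (liver) the reads on genes. From them 100% of values came out as whole reads within 0.01. Columns of the authors' own comparisons and 72 other columns of values per sample were not used.

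Differences were tested with limma 3.58.1 (trend) in R 4.3.3 on log2(FPKM + 1) over genes with a mean of at least 0.5 FPKM, with Benjamini-Hochberg adjustment at 0.05, and each fit held only the groups compared. Fold changes on this scale understate those of low genes. The other settings tried were 0.1 FPKM as pseudocount, no filter, a minimum of 1, TPM, edgeR 4.0.16 and DESeq2 1.42.0 on the recovered reads, leaving out each mouse in turn in both tissues, leaving out mice 182 and 183, and the mouse as a block. On simulated counts for the WT visWAT diet comparison limma recovered 179 of 200 changed genes of 13776, with 8 false calls. The simulated means left out mouse 183, and all simulated libraries had the same spread. No simulated library stood apart as that of mouse 183 did, so these counts do not cover that feature of the real comparison. Intervals cover the spread between mice, 1 library per mouse and tissue.

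Same mouse numbers in visWAT and liver were taken to mark the same animal, since the labels repeat the number. Over 14657 genes the deviations of the 18 pairs from their group means correlated at -0.05 to 0.22 (median 0.03). In 7 of the 18 the visWAT library correlated more with the liver of its own number than with any other liver of its group. These values do not settle the pairing. The members and lists were chosen with earlier results of these data known. All 35 genes could be named, and of the 3 further lists the 3 largest rises and falls per comparison among called genes that reached 1 FPKM on average in any group. Promoter windows came from GENCODE M39 on GRCm39, and 34 of 36 gene identifiers had a deposited start within 1000 bases of the window's. Figures were drawn with matplotlib 3.10.9.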

Additional observations from a re-analysis of the deposited data

Results flagged for a closer look

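Of 261 sets of values of 1 gene in 1 group of 4 or 5 libraries, 31 (11.9%) held a library whose gap to its nearest neighbour passed Dixon's 95% limit, where chance marks about 1 in 20. The visWAT library labelled WT NCD mouse 183 was the one apart, as the highest, in 14 of them. Its FPKM was 132 for Hspa5, 68.9 for Hsp90b1, 187 for Calr, 105 for Pdia3, 32.4 for Dnajc3, 62.3 for Sdf2l1, 39.1 for Creld2, 39.9 for Manf, 20.3 for Hyou1, 10.7 for Ern1, 71.7 for Herpud1, 14.5 for Derl3, 24.6 for Chac1 and 35.8 for Psat1.

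In other visWAT libraries, Mlkl Adi-KO HFD mouse 152 was apart as the highest for Hsp90b1 (71.0 FPKM) and Pdia6 (52.5), and WT HFD mouse 155 for Calr (209.6 FPKM), Pdia3 (118) and Sdf2l1 (42.9). WT HFD mouse 154 was apart as the highest for Hspa1a (2.42 FPKM) and Mlkl Adi-KO HFD mouse 151 as the lowest for Sesn2 (5.87 FPKM). In liver, WT NCD mouse 182 was apart as the lowest for Calr (218 FPKM) and Pdia3 (122), WT HFD mouse 164 for Pdia4 (59.1 FPKM), and Mlkl Adi-KO NCD mouse 199 for Hyou1 (27.7 FPKM) and Eif2ak3 (3.64). The highest livers apart from their group were WT HFD mouse 154 for Hspa1b (23.3 FPKM) and Hsph1 (16.2), Mlkl Adi-KO HFD mouse 157 for Hsph1 (19.2 FPKM) and Dnajb1 (16.3), and Mlkl Adi-KO HFD mouse 152 for Sesn2 (4.41 FPKM).

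In WT mice the log2 diet difference was greater in visWAT than in liver, by the interaction test of limma, for Sdf2l1 (2.32), Ddit3 (1.55), Manf (1.32), Hspa5 (1.17), Calr (0.97), Hsph1 (0.89), Pdia3 (0.83), Hsp90b1 (0.79), Dnajb11 (0.76), Edem1 (0.74), Pdia4 (0.64), Hsp90aa1 (0.62), Dnajb1 (0.59), Eif2ak3 (0.58) and Canx (0.42). It was smaller in visWAT for Chac1 (-2.06), Asns (-1.03) and Xbp1 (-0.84). Of these 18 calls 11 held in every fit that left out 1 mouse. The call of Manf was lost in 8 of the 9 fits, that of Pdia4 in 6, Hsp90aa1 in 5, Hsph1 in 4 and Sdf2l1 in 2. Those of Dnajb11 and Chac1 were each lost in 1.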

How the results depend on the processing

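The number of the 35 genes that differed by diet in WT visWAT was 6, or 17.1% beside 37.8% of all genes. It came to 3 with no filter, 13 on the TPM scale and 23 without mice 182 and 183. When 1 mouse was left out it was between 3 and 16, the highest without mouse 183. The shares of all genes in the other fits of this section are not given here, so their counts do not single out the 35 genes. edgeR called 4 (2 higher and 2 lower) and DESeq2 7. Between visWAT and liver 17 differed on the TPM scale in place of 26. DESeq2 called 1 gene in the genotype comparison in NCD liver and 1 in the diet-by-genotype interaction in liver, where limma called 0. The TPM scale moved the median log2 difference of all genes away from 0 in 6 comparisons, to 0.42 for diet in WT visWAT, 0.52 between the tissues, 0.39 for tissue by diet, 0.35 for genotype in NCD visWAT, -0.45 for diet by genotype in visWAT and -0.10 for genotype in HFD visWAT. The other counts stayed within 1.5 times of their values, at 16 to 22 (Mlkl Adi-KO visWAT), 14 to 20 (WT liver), 7 to 10 (Mlkl Adi-KO liver), 22 to 29 (visWAT against liver) and 12 to 22 (tissue by diet) when 1 mouse was left out. No called gene changed sign under any alternative run, and outside the fits that left out 1 mouse 47 of 693 values of called genes lost their call.

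With the mouse as a replicate block, 28 genes differed between visWAT and liver (Creld2 and Manf in addition) and 22 in the tissue-by-diet interaction, and this pairing changed no other call. No paired analysis was possible within a tissue because each mouse gave 1 library there.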
